A study of Mus musculus with 3 samples.

Results

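To see what the addition of CpG changed in macrophages that already received IFN-γ and an IL-10 receptor blocker, the array of the Triple condition was compared with the array of the IFN-γ + αIL-10R condition. These are 2 of the 3 arrays of the series, which has 1 array per condition. The third array (CpG alone) serves here only as a value beside single genes, in setting the scale, and in choosing the probe of a gene. The cells were bone marrow-derived macrophages (BMDMs) of C57BL/6J mice, grown from bone marrow progenitors with medium conditioned by L929 cells that express human M-CSF, the growth factor of macrophages, and then stimulated for 20 h. The IFN-γ + αIL-10R cells received interferon-γ and an antibody against the IL-10 receptor (IL-10RB in the labels), and the Triple cells received both of these agents and CpG, so that IFN-γ and the blocker are common to both arrays and CpG is the only labeled difference. No unstimulated cells were on the arrays, and the labels do not say how many mice or wells went into 1 RNA sample. All genes whose chosen probe had no outlier mark on either array were used, which gave 33780 of the 34821 gene names of the design.

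CpG DNA is a ligand of TLR9, an endosomal Toll-like receptor that signals through MyD88 to NF-κB and to MAP kinases. IFN-γ signals through JAK kinases to GAS elements of promoters and induces IRF1, guanylate-binding proteins, and the machinery of antigen presentation. IL-10 is made by macrophages after Toll-like receptor signals and limits their inflammatory response through STAT3, a loop that the blocking antibody interrupts.

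Values are the scanner software's processed signals, intensities on a linear scale with the background subtracted, and "from A to B" gives the signal with IFN-γ + αIL-10R and then the signal in Triple. Folds and log2 folds were calculated after the arrays had been shifted to a common 75th percentile, so that they differ slightly from the ratio of the printed signals. The processed signal was well above background, the software's detection mark, at 44.8% of the spots of the IFN-γ + αIL-10R array and at 44.4% of those of the Triple array, and no spot was saturated. A gene detected in Triple at more than 2 times its IFN-γ + αIL-10R signal was called up, and a gene detected with IFN-γ + αIL-10R at more than 2 times its Triple signal was called down. Undetected signals were set no lower than the dimmest detected signal of their array, which makes the fold a bound, given as at least a value. Repeated spots of 1 probe differed with an SD of 0.09 (log2) on the IFN-γ + αIL-10R array and 0.11 on the Triple array, which corresponds to 0.14 for the log2 fold of a single probe. With 1 array per condition there was no replicate of a culture, no test between conditions was possible, and this noise between spots is the only error that was measured. The effect of CpG and any difference between cultures or RNA samples cannot be told apart.

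The macrophage markers were detected on both arrays. Of 9 measured markers, Csf1r, the receptor of M-CSF, went from 230482 to 159074 (log2 fold −0.50), Emr1 (the F4/80 antigen) went from 80481 to 134178 (log2 fold 0.77), and Aif1 went from 153095 to 191659 (log2 fold 0.36), whereas Cd14 was up and Cd68, a lysosomal protein, fell from 190933 to 83203 (2.25-fold). Of the markers of other cell types, Ms4a1 and Pax5 (B cells) and Cd3d and Cd8a (T cells) were not well above background on either array. The T cell list had 4 of 8 members detected, among them Cd4 (1943 and 1817), and 0 called, and its summed signal was 3047 and 2852 on the 2 arrays, compared with 943654 and 884274 for the macrophage list. The B cell (2 of 7 detected), erythroid (1 of 7), mast cell (2 of 4), endothelial (2 of 5), and megakaryocyte (1 of 4) lists had 0 called. In the NK cell list 2 of 7 members were down, namely Klra8, a receptor gene (from 2872 to 448, 6.27-fold), and Klrk1, the NKG2D receptor (from 568 to 87.8, 6.33-fold). Ncr1, Klrb1c, Eomes, and Gzmb were not well above background on either array, and the summed signal of the list was 3683 and 761. In the dendritic cell list Clec9a fell (from 1963 to 152, 12.6-fold), and Zbtb46 (from 36.3 to 133, 3.74-fold) and Xcr1 (from 6.8 to 60.7, at least 2.33-fold) were up, though under 2-fold after normexp correction. The 7 members had a summed signal of 38029 and 30119.6, of which 1 other member, not called, gave 35974 and 29735.8. In the neutrophil list S100a8 (from 55.7 to 517, 9.48-fold) and Camp (from 17.5 to 139, at least 5.32-fold) were up and Ly6g was down (from 7699 to 2658, 2.84-fold), while Mpo, Ltf, and Ngp were not well above background, and the 10 members summed to 9473 and 4897. A second Camp probe gave a log2 fold of 0.92. In the fibroblast list Lum (from 6.1 to 148, at least 5.65-fold) and Col3a1 (from 9.79 to 58.5, at least 2.24-fold) were up from background, the second not past 2-fold after normexp correction, and the 5 members summed to 332 and 629. The part of such cells in the differences given here was not tested, and in RNA of a whole culture fewer cells of a type and less RNA per cell cannot be told apart.

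In Triple 1195 genes were higher than with IFN-γ + αIL-10R by more than 2-fold and 1692 were lower. These were 3.54% and 5.01% of the 33780 genes measured, and 6.58% and 9.32% of the 18164 genes that were well above background on at least 1 of the arrays. Among the 16224 genes well above background on both, 86.5% differed by 2-fold or less, and their median log2 fold was −0.04. Of the genes called up, 412 differed more than 4-fold and 73 more than 16-fold, and of those called down, 508 and 32. In 346 of the genes up and 347 of the genes down the weaker of the 2 signals was undetected. With scaling to the spike-in controls instead, which moved the median of all genes by −0.16 (the 75th percentile of all probes moved it by 0.12), 960 genes were up and 2128 down, so that the share of genes up among all calls was 31.1% in place of 41.4%. The 52 gene lists described below were read against these shares, and with 33 of them having a median log2 fold within 0.3 of 0, no direction is read from the median of such a list.

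**Figure D1:**
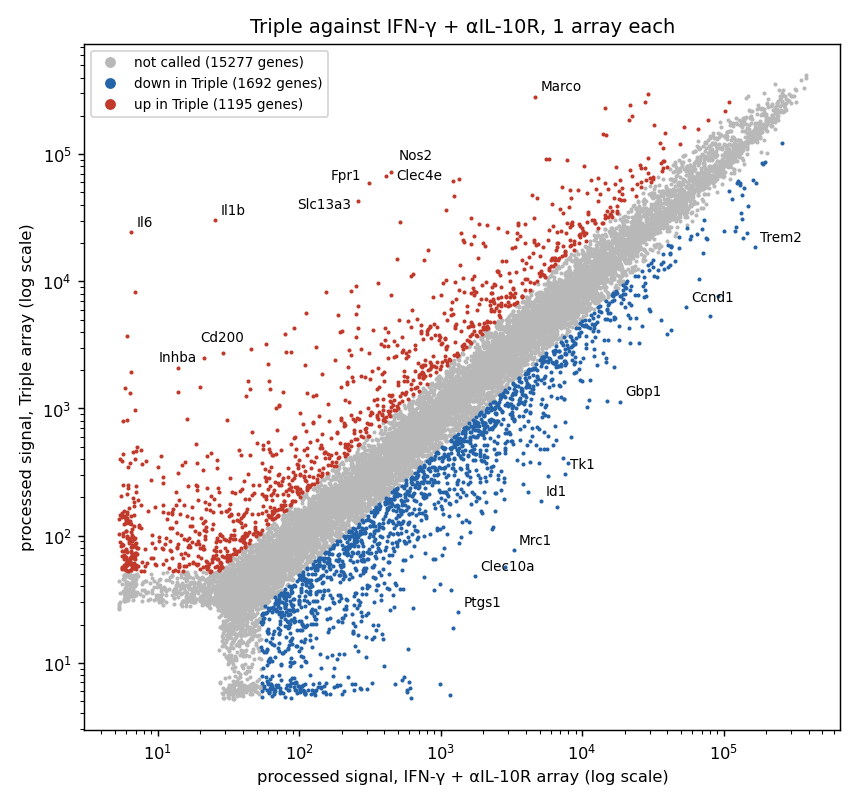
Processed signals of the 18164 genes well above background on at least 1 of the arrays, with the IFN-γ + αIL-10R array on the x axis and the Triple array on the y axis (log scales). Each point is 1 gene, red for the 1195 genes up in Triple and blue for the 1692 genes down; the vertical and horizontal bands of points at the left and at the bottom are genes close to background on 1 array.

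Among the genes well above background on both arrays, the 15 largest increases, from 38.8-fold to 194-fold, included Fpr1, Fpr2, Clec4e, and Marco, which encode receptors for microbial or formylated ligands. Fpr1, a receptor for formyl peptides (probe on chromosome 17 from 18013609 to 18013668, mm9), rose from 311 to 58951 (194-fold), and Fpr2, a related receptor, rose from 1343 to 63371 (48.2-fold). Clec4e, the lectin Mincle, rose from 408 to 67349 (169-fold), and Marco, a scavenger receptor that binds bacteria, rose from 4671 to 283316 (62-fold). On the array of CpG alone these 4 genes had signals of 20789, 6455, 8215, and 90138, each above that with IFN-γ + αIL-10R. Slc13a3, a transporter of dicarboxylates, rose from 261 to 42458 (166-fold), and here CpG alone had the highest signal of the 3 arrays, 140393. By contrast Nos2, the inducible nitric oxide synthase (chromosome 11 from 78773567 to 78773626), rose from 448 to 72449 (165-fold), while the signal with CpG alone was 155, the lowest of the 3. Ptgs2 (cyclooxygenase-2) rose from 513 to 29014 (57.8-fold) with 142 in CpG, and Procr, the endothelial protein C receptor, rose from 1232 to 61886 (51.3-fold) with 1418 in CpG.

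The remaining genes among the 15 largest measured increases were of several kinds. Cd200, a ligand of an inhibitory receptor on myeloid cells, rose from 45.8 to 2955 (65.9-fold). Il1rn, the antagonist of the IL-1 receptor, rose from 112 to 5598 (51.2-fold). Mmp14, a membrane-bound matrix metalloproteinase, rose from 79.5 to 3862 (49.6-fold), and Sdc1, the heparan sulfate proteoglycan syndecan-1, rose from 92 to 4257 (47.3-fold). Rasgrp1, an exchange factor for Ras, rose from 58.6 to 3240.4 (56.5-fold), and a second probe of it gave a log2 fold of 3.37. Ppap2a, the array's name for the lipid phosphatase gene Plpp1, rose from 154 to 8302 (55-fold), with 4.97 on a second probe. Daf2, the array's name for Cd55b, rose from 43.4 to 1648 (38.8-fold). For its neighbour in function, Cd55 (decay-accelerating factor), the signal without CpG was not detected above background, and it rose from 6.04 to 3694 (at least 142-fold), while CpG alone gave 4362. Both encode regulators of complement on the cell surface, and near-identical sequences of the 2 genes may share signal.

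Among the genes that rose from background, the 3 brightest in Triple were cytokine genes. Il1b rose from 25.5 to 30090.1 (at least 1153-fold), Il6 rose from 6.52 to 24279 (at least 930.3-fold), and Il12b, a subunit shared by IL-12 and IL-23, rose from 6.85 to 8242 (at least 316-fold). All 3 had a dimmer signal with CpG alone, 1445, 319, and 71.8. Inhba, the activin A subunit, rose from 21.3 to 2509.8 (at least 96.2-fold), and CpG alone gave 22.7. Gfi1b, a transcriptional repressor of blood cell precursors, rose from 14 to 2096 (at least 80.3-fold), Fzd1, a Wnt receptor, rose from 20 to 1465 (at least 56.1-fold), and Lad1 (ladinin) rose from 5.9 to 1451 (at least 55.6-fold).

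**Figure D2:**
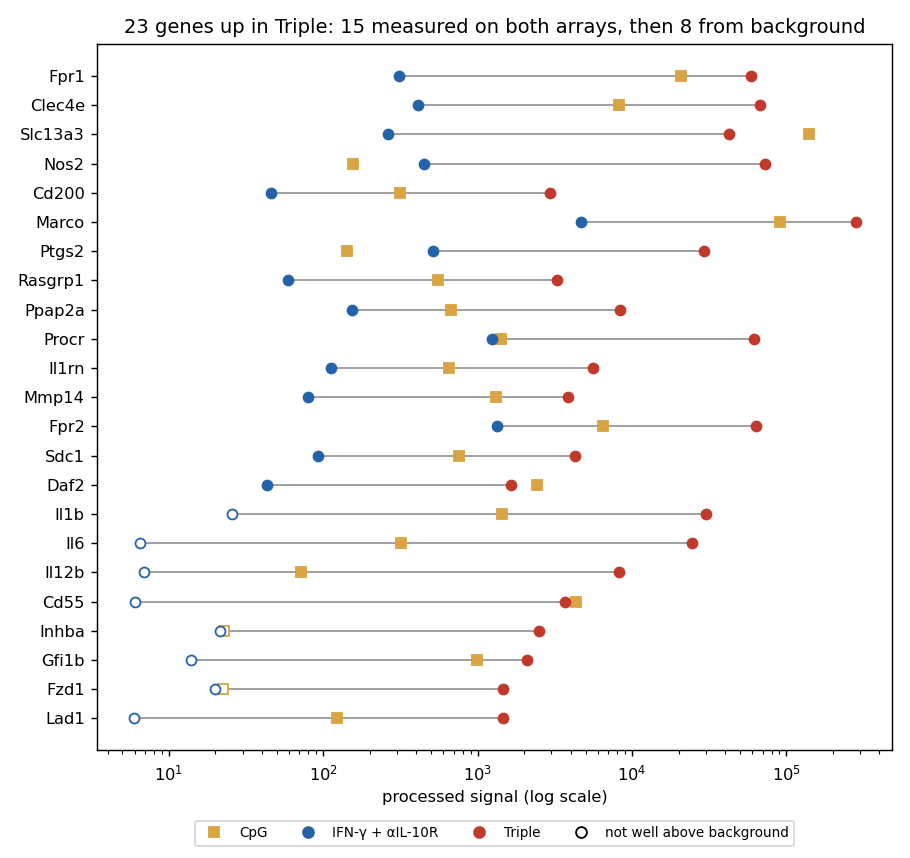
Processed signal (log scale) of 23 genes up in Triple on the CpG (square), IFN-γ + αIL-10R (blue), and Triple (red) arrays; open symbols are not well above background. Triple lies to the right of IFN-γ + αIL-10R for each gene by definition, from 38.8-fold for Daf2 to 194-fold for Fpr1 among the upper 15. CpG lies close to Triple for Cd55, between the other arrays for Marco (90138, against 283316 in Triple), and below IFN-γ + αIL-10R for Nos2 and Ptgs2.

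Most of the measured NF-κB subunits, inhibitors, and cofactors were called up. Of 20 genes, 12 were up, compared with the background of 3.54%, and 0 down, and the median log2 fold of the detected members was 1.91. The largest increase was that of Nfkbiz (IκBζ), a nuclear cofactor needed for secondary response genes such as Il6, from 252 to 3631 (14.7-fold). Nfkbia, the inhibitor IκBα and itself a target of NF-κB, rose from 14117 to 144855 (10.5-fold), and Tnfaip3 (A20), a ubiquitin-editing inhibitor, rose from 1684 to 8910.3 (5.41-fold). Ikbke, an IKK-related kinase, rose from 816 to 4215 (5.28-fold). Of the subunits, Nfkb1 went from 1175 to 2265 (log2 fold 0.98), just under the threshold, and Rela was marked as an outlier and not measured. The kinases of the classical pathway, Chuk (from 6440.4 to 4940.0, log2 fold −0.35) and Ikbkb (from 1474 to 1732, log2 fold 0.26), were within 2-fold.

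The promoters of Nfkbia, of Nfkb2 (a subunit of the alternative pathway, among the genes up), and of Il6 are shown because each holds a match to the κB motif close to the start of transcription. Each line gives the 250 bases before the start, from RefSeq on GRCm38.p6, with the κB match in capitals.
Nfkbia (chr12:55492648-55492897, minus strand): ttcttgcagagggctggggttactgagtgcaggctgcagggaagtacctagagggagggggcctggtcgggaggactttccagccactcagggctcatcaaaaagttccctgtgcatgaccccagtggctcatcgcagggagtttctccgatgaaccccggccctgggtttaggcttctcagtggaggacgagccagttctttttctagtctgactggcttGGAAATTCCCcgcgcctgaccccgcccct
Nfkb2 (chr19:46304487-46304736, plus strand): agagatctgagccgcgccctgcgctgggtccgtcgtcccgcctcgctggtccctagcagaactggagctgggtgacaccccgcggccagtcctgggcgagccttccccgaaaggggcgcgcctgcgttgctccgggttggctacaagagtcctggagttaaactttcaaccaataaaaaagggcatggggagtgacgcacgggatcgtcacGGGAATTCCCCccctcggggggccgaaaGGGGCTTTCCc
Il6 (chr5:30012864-30013113, plus strand): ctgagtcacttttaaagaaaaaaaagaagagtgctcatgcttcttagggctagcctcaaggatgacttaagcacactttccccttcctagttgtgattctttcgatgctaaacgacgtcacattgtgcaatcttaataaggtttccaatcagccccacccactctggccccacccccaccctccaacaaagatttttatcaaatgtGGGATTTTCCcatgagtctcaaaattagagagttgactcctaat
In the window from 250 bases before to 50 bases after the start, searched on both strands, the κB motif was found in 7 of the 10 promoters of NF-κB list genes called up that the reference table holds and in 1 of the 5 of those not called. It was in 14.5% of the 688 promoters of all genes up, 9.75% of the 1128 promoters of genes down, 9.94% of the 10171 promoters of detected genes, and 8.18% of all 27025 promoters. A match is a description of the sequence and does not show that a factor bound there.

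Among the 21 measured AP-1, ATF, and EGR factors, 7 were up and 1 was down (33.3% and 4.76%, against 3.54% and 5.01% of all genes measured). Maff, a small Maf protein, rose from 68.7 to 1009 (15-fold), Batf rose from 1641 to 19734 (12.3-fold), and Ier3, an early response gene, rose from 234 to 2628 (11.5-fold), whereas Fos fell from 5106 to 1674 (2.99-fold) and Jun went from 10549.6 to 8796 (log2 fold −0.23). The MAP kinase phosphatases were split, with 4 up and 2 down of 12 (33.3% and 16.7%). Of the genes up, Dusp4 (from 117 to 295, 2.57-fold) and Dusp16 (from 22.3 to 55.2, at least 2.12-fold) were not past 2-fold after normexp correction. This left 2 up and 2 down. Dusp2 rose from 1649 to 31609.9 (19.6-fold) and Dusp1 from 1112 to 4966 (4.56-fold), whereas Dusp6, which acts on ERK, fell from 9576 to 2059.9 (4.55-fold), and Dusp7 fell from 2313 to 695 (3.26-fold). The 11 regulators of mRNA decay were also divided, with 2 up and 2 down (18.2% each). Zc3h12a (regnase-1), an RNase that degrades cytokine mRNAs, rose from 216 to 1612 (7.62-fold), while Zfp36l1 and Zfp36l2, which bind AU-rich elements, fell from 7439 to 1182 (6.16-fold) and from 34524 to 12191 (2.77-fold). In the BCL-2 list 14 of 21 genes were within 2-fold, and the median log2 fold was −0.005. Of the 21 genes 3 were up and 3 down (14.3% each, against 3.54% and 5.01% of all genes measured). The 3 genes up are known as inhibitors of cell death, namely Cflar (from 1088 to 10288, 9.66-fold), Bcl2a1d (from 21282 to 186335, 8.95-fold), and Birc3 (from 529.8 to 3625, 6.99-fold). The 3 genes down encode the death-promoting BH3 proteins BMF, BID, and PUMA: Bmf fell from 1059 to 80.6 (12.9-fold), Bid from 18602 to 7614 (2.39-fold), and Bbc3 from 5664 to 2372 (2.34-fold). Other Cflar probes gave log2 folds of 0.62, 2.46, and 2.47. Bcl2a1d has near-identical copies that the probe may also detect.

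Of 27 cytokine genes, 14 were up, 3 down, and 6 were not well above background on either array. Beside Il1b, Il6, and Il12b, Tnf rose from 7771 to 90432 (11.9-fold) and was thus already well above background without CpG. Il10, whose receptor was blocked in both conditions, rose from 1271 to 9957 (8-fold), with 3117 for CpG alone. Among cytokines that IFN-γ is known to support, Il15 (from 1943 to 1664, log2 fold −0.19) and Il18 (from 2928 to 2192, log2 fold −0.39) were within 2-fold. Downward calls were those of Il16 (from 1046 to 148, 6.89-fold), a chemoattractant of CD4-positive cells, Il7 (from 99.3 to 31.2, 3.12-fold), and Csf1 (from 1178 to 564, 2.04-fold). After normexp correction Il7 (log2 fold −0.70) and Csf1 were not past the threshold, and 1 of the 3 downward calls was left. Csf1 was not past it either after scaling by the median, by the 75th percentile of all probes, or by quantiles, in the authors' table, or with the mean of its probes.

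Of 14 CXC chemokines 4 were up and 2 down. Cxcl9, a chemokine induced by IFN-γ, rose from 14431 to 230855 (16.3-fold) and had 38.6 with CpG alone, so that its signal in Triple exceeded that of either treatment. The neutrophil attractants Cxcl2 (from 6.17 to 344, at least 13.2-fold) and Cxcl1 (from 5.62 to 149.7, at least 5.74-fold) rose from background to low signals. Cxcl10 (from 142968 to 277273, log2 fold 0.99) and Cxcl11 (from 136158 to 90538, log2 fold −0.56) were bright on both arrays and within 2-fold, and Pf4 (from 32005 to 11025, 2.84-fold) and Cxcl14 (from 284 to 50.9, 5.46-fold) were down. In the CC and CX3C list 5 of 19 genes were up and 1 was down. Ccl3 rose from 5829 to 91428 (16-fold) and Ccl4 rose from 22636 to 199287 (9-fold), both attractants of leukocytes. The attractant of monocytes Ccl7 rose from 38581 to 146765 (3.89-fold). Ccl5 went from 232933 to 356642 (log2 fold 0.65) and Ccl8 from 13495 to 11841 (log2 fold −0.16). Of 20 receptors of chemoattractants 6 were up and 1 was down. Ccr7, which guides cells to lymph nodes, rose from 225 to 2892 (13.1-fold), and Cx3cr1, the receptor of fractalkine, fell from 940.0 to 111 (8.28-fold), with 6279.5 for CpG alone. C5ar1 (from 4462 to 3538, log2 fold −0.30) was within 2-fold.

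Nos2 did not move alone within arginine metabolism. Of 17 measured genes, 5 were up and 1 was down. Slc7a2 (CAT2), which imports arginine, rose from 62.1 to 1435 (23.6-fold), and Ass1, which regenerates arginine from citrulline, rose from 5839.5 to 25284 (4.42-fold). Arg2, the mitochondrial arginase, rose from 6.76 to 146 (at least 5.59-fold). The gene down was Ddah2 (from 355 to 86.5, 4.01-fold), whose product degrades inhibitors of nitric oxide synthase. Asl (from 2417 to 3005, log2 fold 0.35) and Odc1 (from 4111 to 5012, log2 fold 0.32) were within 2-fold.

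In the eicosanoid pathway more genes were down than up. Of 25 genes 2 were up and 9 down. Ptgs1, the constitutive cyclooxygenase, fell from 1337 to 25 (at least 49.7-fold), and Tbxas1 (thromboxane synthase) fell from 29955 to 5811 (5.04-fold). Hpgd, which inactivates prostaglandins, fell from 244 to 6.09 (at least 9.05-fold), and Cysltr1, a receptor for cysteinyl leukotrienes, from 4296 to 941 (4.47-fold). Ptges, the prostaglandin E synthase that usually acts with cyclooxygenase-2, went from 24002 to 24090.3 (log2 fold 0.04), and Pla2g4a, the cytosolic phospholipase that releases arachidonic acid, went from 12278 to 11984, which were both within the noise between spots.

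In 4 lists of genes linked to interferons most members were within 2-fold, as were 86.5% of all genes well above background on both arrays. These were antiviral genes, interferon regulatory factors, MHC class I processing, and guanylate-binding proteins with IRG GTPases. Other genes known to respond to interferons were called, among them Cxcl9 (up) and Ly6a (down). Of 32 antiviral genes, 0 were up and 1 was down, and their median log2 fold was 0.08 against −0.04 for all genes. Isg15 went from 192352 to 213261 (log2 fold 0.18), Rsad2 (viperin) from 28088 to 23745 (log2 fold −0.21), and Irf7 from 31209.7 to 37258 (log2 fold 0.29). The exception was Ifit3, which fell from 64748 to 23504 (2.7-fold). Ifnb1 itself, a member of the cytokine list, rose from 13.5 to 173 (at least 6.64-fold). All 9 interferon regulatory factors measured were within 2-fold, among them Irf1 (from 132675 to 123964, log2 fold −0.07) and Irf8 (from 77123 to 89361, log2 fold 0.24), whereas Irf5 was marked as an outlier. With CpG alone the signal of Irf1 was 9196. The genes of MHC class I processing were also within 2-fold without exception (19 of 19 measured, log2 folds from −0.65 to 0.40). Of the 19 guanylate-binding proteins and IRG GTPases, 16 were within 2-fold, for example Gbp2 (from 239515 to 252036, log2 fold 0.10) and Igtp (from 139609 to 118507, log2 fold −0.21). Gbp4 (from 29413 to 70865, 2.46-fold) and Gbp10 (from 2132 to 4466, 2.14-fold) were up, the second with a log2 fold of 0.93, under the threshold, after spike-in scaling. Gbp1, the array's name for Gbp2b, fell from 18472 to 1127 (16-fold), and its second probe gave −3.99. Members of this family are close in sequence and may share signal.

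The promoters of Irf1 and Isg15 are shown as examples of genes at a like level on both arrays, with the GAS match (TTCNNNGAA) and the ISRE core match (GAAANNGAA) in capitals (250 bases before the start, RefSeq, GRCm38.p6).
Irf1 (chr11:53769764-53770013, plus strand): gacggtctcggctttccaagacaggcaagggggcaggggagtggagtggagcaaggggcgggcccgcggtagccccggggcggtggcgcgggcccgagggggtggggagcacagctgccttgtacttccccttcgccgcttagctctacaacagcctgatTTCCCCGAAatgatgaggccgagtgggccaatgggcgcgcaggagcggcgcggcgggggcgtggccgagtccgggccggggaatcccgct
Isg15 (chr4:156200819-156201068, minus strand): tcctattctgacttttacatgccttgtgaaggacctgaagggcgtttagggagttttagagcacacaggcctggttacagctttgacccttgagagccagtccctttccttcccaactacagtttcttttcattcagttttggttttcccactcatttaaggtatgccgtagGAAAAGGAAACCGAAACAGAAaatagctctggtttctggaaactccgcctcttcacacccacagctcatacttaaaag
The ISRE core was found in 14 of the 24 promoters of antiviral genes that were not called, and in 8.28% of those of all genes up, 7.71% of genes down, and 7.63% of detected genes. For the GAS motif the last 3 shares were 7.41%, 6.47%, and 7.12%.

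Of 14 measured genes of MHC class II 4 were down and 1 was up, with a median log2 fold of −0.74. Ciita, the coactivator that controls the class II genes, fell from 258 to 63.3 (3.99-fold), and its signal was dim on both arrays. H2-DMa (from 28426 to 7629, 3.65-fold) and H2-DMb1 (from 75532 to 21895, 3.38-fold), which load peptides, were lower as well, and their signals in Triple were above those with CpG alone (802 and 5747). The classical chains H2-Aa (from 39514 to 20687, log2 fold −0.90), H2-Eb1 (from 201431 to 101911, log2 fold −0.95), and H2-Ab1 (from 217861 to 166997, log2 fold −0.35) were not past the threshold. H2-Oa, part of an inhibitor of peptide loading, was up (from 558 to 1309, 2.4-fold). Cd74 and Ifi30 were marked as outliers and not measured.

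In the cytokine receptor and JAK-STAT list 5 of 36 genes were up and 0 down. The receptor genes of the blocked and the added cytokine were within 2-fold. Il10ra went from 18952 to 13483 (log2 fold −0.46), Il10rb from 8209 to 6464 (log2 fold −0.31), Ifngr1 from 13061 to 7851 (log2 fold −0.70), and Ifngr2 from 9634 to 14624 (log2 fold 0.63). Socs3, which inhibits signaling by gp130 receptors, rose from 8207 to 52485 (6.53-fold), whereas Socs1, an inhibitor of IFN-γ signaling, went from 40651 to 50881 (log2 fold 0.35) with only 1059 in CpG. Jak2 rose from 4952 to 11633 (2.4-fold), and Il1r2, the decoy receptor of IL-1, rose from 15.6 to 378 (at least 14.5-fold).

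Toll-like receptors and their adaptors were called in both directions, with 6 up and 6 down of 27. Tlr9, the receptor of CpG, went from 2566 to 1887 (log2 fold −0.41) and Myd88 from 21660.0 to 24571 (log2 fold 0.21), both within 2-fold. The genes up included Cd14, a coreceptor for several ligands (from 5534 to 90961, 16.8-fold), and Irak3, an inhibitory member of the IRAK family (from 883 to 7541, 8.72-fold). Those down included receptors of nucleic acids and of protozoan profilin and the partner of CD180. Tlr12 fell from 4834 to 717 (6.59-fold), Tlr11 from 269 to 6.35 (at least 9.99-fold), Tlr13 from 71401 to 16630.2 (4.2-fold), and Ly86 from 121780.0 to 26848 (4.44-fold). CpG alone gave 6.7 and 11.4 for Tlr12 and Tlr11.

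Of 18 costimulatory and checkpoint molecules 6 were up and 2 down. Cd40 rose from 4777 to 45468 (9.73-fold), and Slamf7 from 4708 to 19338 (4.2-fold), whereas Cd86 went from 8762 to 7462 (log2 fold −0.20) and Cd80 from 88.3 to 94.9 (log2 fold 0.13). Havcr2 (TIM-3) fell from 2392 to 559 (4.19-fold). In the TNF receptor and TRAF list 7 of 21 genes were up and 5 down. Traf1, an NF-κB target, rose from 1098 to 36634 (34.1-fold), Fas from 967 to 3466 (3.66-fold), and Ripk2 from 185 to 647 (3.57-fold), while Tnfrsf18 (GITR) fell from 205 to 22.4 (at least 7.62-fold) and Tnfrsf12a from 2394 to 803 (2.92-fold). Tnfrsf1a (from 28876 to 24299, log2 fold −0.22) and Ripk1 (from 3525 to 3558, log2 fold 0.04) were within 2-fold.

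Of 27 scavenger receptors and C-type lectins 5 were up and 3 down. Beside Clec4e, Clec4n (Dectin-2) rose from 252 to 9227 (37.4-fold) and Clec4d from 10279 to 81379 (8.09-fold). Mrc1, the mannose receptor, fell from 3274 to 76.4 (41.9-fold), and Clec10a, a galactose-type lectin, fell from 1753 to 47.7 (36-fold). For both, the signals with CpG alone were 5909.6 and 478. Mgl2, a relative of Clec10a, went from 51331 to 97240.2 (log2 fold 0.95), Clec7a (Dectin-1) went from 22928 to 15385 (log2 fold −0.54), and Msr1 went from 4397 to 4968 (log2 fold 0.21). Of 10 genes of Fc receptors and their signaling chains 2 were up and 1 was down (20% and 10%). Of all genes detected on at least 1 array 6.58% were up and 9.32% down, so that the share down lay near that of all genes. Fcgr2b, the inhibitory receptor, rose from 941 to 4386 (4.76-fold) and Syk, a kinase of these receptors, from 9302 to 52628 (5.78-fold), while Fcgr1 (from 52579 to 35314, log2 fold −0.54), Fcgr3 (from 18931 to 13123, log2 fold −0.50), and Fcgr4 (from 131570.0 to 107964, log2 fold −0.25) were within 2-fold. Fcgrt, the neonatal Fc receptor, fell from 3810.3 to 873 (4.27-fold).

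In the complement list 4 of 22 genes were up and 3 down. C3, the central component, rose from 29040.3 to 296775 (10.4-fold) and C1s from 30.8 to 809.7 (at least 26.8-fold), whereas C4b fell from 3924 to 949 (4.04-fold). The C1q chains C1qa (from 110391 to 96049.6, log2 fold −0.17), C1qb (from 157927 to 137456, log2 fold −0.17), and C1qc (from 205633 to 179016, log2 fold −0.17) were within 2-fold. Of 26 inflammasome sensors and caspases 3 were up and 3 down (11.5% each). Of all genes detected on at least 1 array 6.58% were up and 9.32% down. Mefv (pyrin) rose from 76.2 to 1356 (18.2-fold) and Nlrp3 from 298 to 658 (2.26-fold), the second with a log2 fold of 0.98 after normexp correction, while Nlrp1b fell from 1902 to 443 (4.2-fold). Casp1 (from 54509 to 69005, log2 fold 0.37), Pycard (from 48208 to 32825, log2 fold −0.52), and Casp8 (from 8732 to 9421, log2 fold 0.14) were within 2-fold.

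The stimuli were combined in the study to make macrophages engulf live cells. The paper reports that a mutant MFG-E8 that blocks the uptake of apoptotic cells did not inhibit this. By its methods the arrays used a lower CpG dose than the phagocytosis assays. Genes of the uptake of apoptotic cells were nonetheless taken as a list. Of 32 genes 4 were up and 9 down, with a median log2 fold of −0.35. Thbs1 (thrombospondin-1), a bridging protein, rose from 189 to 5446 (29.5-fold), with 116 in CpG, and Timd4, a phosphatidylserine receptor, rose to a dim signal (from 40.3 to 142, 3.61-fold) with a log2 fold of 0.86, under the threshold, after normexp correction. Anxa1 (annexin A1) rose from 52873 to 162248 (3.14-fold). Trem2, a lipid receptor of macrophages, fell from 166295 to 18619 (8.74-fold), and the bridging proteins of the TAM receptors Gas6 (from 21687 to 3249, 6.53-fold) and Pros1 (from 1558 to 428, 3.56-fold) were lower too. Itgb5, the β5 integrin subunit, fell from 23952 to 5153 (4.55-fold). Of the TAM receptors themselves, Mertk went from 1983 to 3164 (log2 fold 0.71). The inhibitory receptor gene Sirpa (from 65168 to 55416, log2 fold −0.20) and that of its ligand, Cd47 (from 76051 to 95037, log2 fold 0.35) and the bridging protein Mfge8 (from 35450.2 to 24291, log2 fold −0.51) were within 2-fold.

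The 31 cell adhesion receptors had 11 genes up and 7 down, which became 9 and 9 after spike-in scaling. The integrin α subunits Itga9 (from 274 to 2953, 11-fold), Itgal (from 3532 to 27495, 7.95-fold), and Itga5 (from 1465 to 8244, 5.75-fold) were up and Itga6 was down (from 14692 to 2486, 5.78-fold) on its brightest probe but not on a second (log2 fold −0.02), while their partners Itgb1 (from 5249 to 8051, log2 fold 0.65) and Itgb2 (from 28268 to 34177, log2 fold 0.30) were within 2-fold. Nrp1, a coreceptor of VEGF and semaphorins, fell from 4691 to 513 (8.94-fold), and Icam2 fell from 8753 to 1911 (4.48-fold). In the matrix protease list 8 of 23 genes were up and 2 down, with Mmp13 from 2111 to 27761 (13.4-fold) and Adamts4 from 10.5 to 419 (at least 16.1-fold). The inhibitor Timp2 fell from 11428 to 1685 (6.64-fold). In the coagulation list 5 of 21 genes were up and 4 down. Plau (urokinase) fell from 2097 to 369 (5.56-fold), whereas its receptor Plaur rose from 1794 to 5907 (3.37-fold). In the list of Rac-family GTPases and actin regulators 9 of 35 genes were up and 6 down. Marcksl1, an actin-binding protein, rose from 3962 to 28163 (7.26-fold), Rnd1 from 238 to 1651 (7.08-fold), and Rac2 from 35716 to 123150.0 (3.52-fold), while Arhgap15, a Rac inactivator, fell from 6577 to 566 (11.4-fold) on its brightest probe but not on a second (log2 fold −0.15), and Rac1 went from 35119 to 34582 (log2 fold 0.01).

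**Figure D3:**
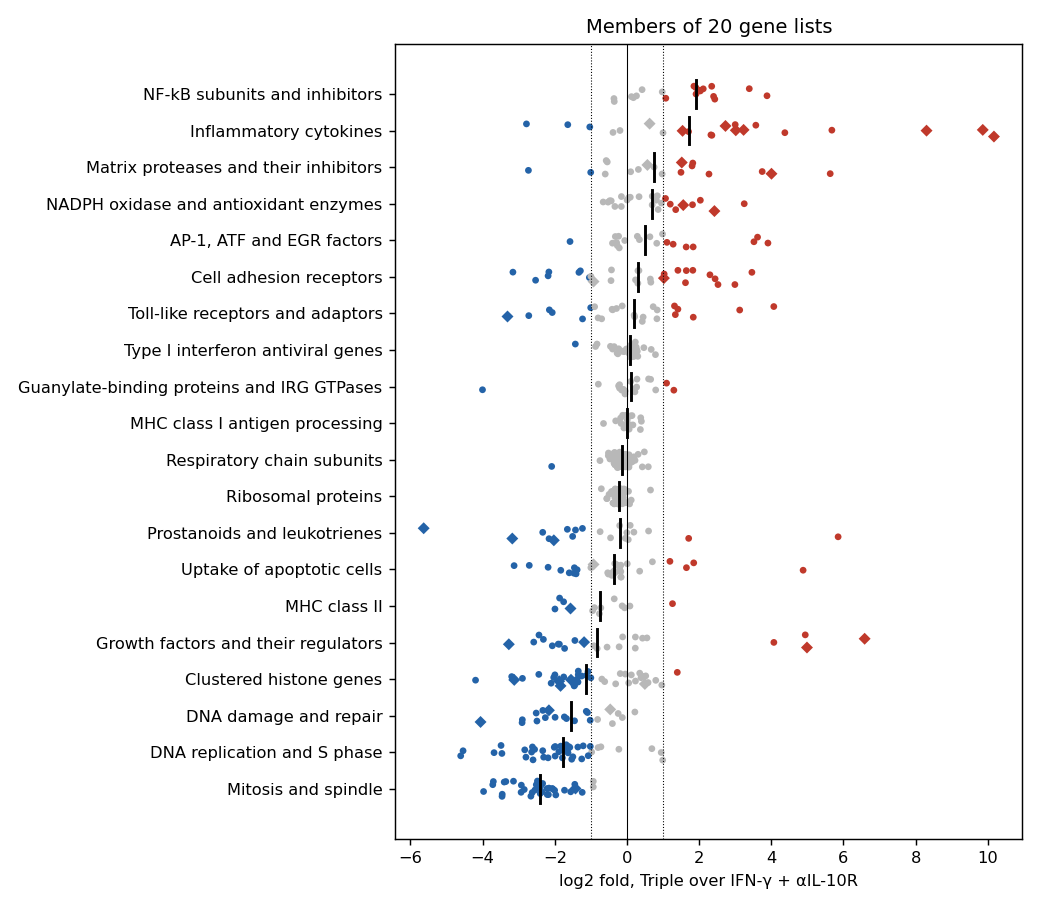
Log2 fold of Triple over IFN-γ + αIL-10R for the members of 20 gene lists that were well above background on at least 1 of the arrays (red up, blue down, grey not called; diamonds are bounds). The black bar is the median of the members well above background on both arrays, from 1.91 for NF-κB genes to −2.41 for mitosis genes, and dotted lines mark 2-fold.

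Most genes of central metabolism were within 2-fold, as were 86.5% of all genes well above background on both arrays. In the TCA cycle list 21 of 25 genes were within 2-fold, and Irg1 (Acod1), which makes itaconate, rose from 21684 to 244379 (11.5-fold). The NADP-dependent malic enzyme Me1 rose from 551 to 1812 (3.36-fold), and Mdh1 (from 23841 to 7853, 2.97-fold) and Idh2 (from 11322 to 4270.5, 2.59-fold) were down. Of 75 respiratory chain subunits 0 were up and 1 was down (Cox7a1, 4.25-fold lower). In the glycolysis list 23 of 31 genes were within 2-fold. Slc2a6, a hexose transporter, rose from 29303 to 92999.5 (3.24-fold), whereas Slc2a1 (from 6379 to 10866, log2 fold 0.80), Hk2 (from 2102 to 3019, log2 fold 0.55), and Pfkfb3 (from 8558 to 9432, log2 fold 0.17) were within 2-fold and Ldhb (from 893 to 272, 3.22-fold) and Aldoc (from 7616 to 2355, 3.17-fold) were down. Of 78 ribosomal protein genes 0 were called, and their log2 folds lay between −0.71 and 0.65.

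In the list of NADPH oxidase and antioxidant enzymes 8 of 25 genes were up and 0 down. Sod2, the mitochondrial superoxide dismutase, rose from 27731 to 258267 (9.52-fold), Gsr (glutathione reductase) from 4904 to 19655 (4.1-fold), and Slc7a11, the cystine importer, from 5.89 to 140.1 (at least 5.37-fold). In the heme and iron list 5 of 19 genes were up and 3 down. Lcn2 (lipocalin-2), which binds bacterial siderophores, rose from 637 to 11492 (18.4-fold), Cp (ceruloplasmin) from 407 to 3445 (8.66-fold), and Hmox1 (heme oxygenase-1) from 17161 to 57912 (3.45-fold), while Hfe fell from 5999 to 1243 (4.72-fold). A second Cp probe gave a log2 fold of 0.80. The ferritin genes Fth1 (from 353486 to 380784, log2 fold 0.14) and Ftl1 (from 275552 to 269116) were within the noise between spots.

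In the list of sterol efflux and lipoprotein genes 1 of 19 was up and 5 were down. Nr1h3 (LXRα), the sterol-sensing nuclear receptor, rose from 4388 to 47660.4 (11.1-fold), and its known targets Abca1 (from 1625 to 599, 2.66-fold) and Abcg1 (from 31791 to 14806, 2.1-fold) were down, the second not past the threshold with the 75th percentile of all probes (log2 fold −0.96), with median scaling, or in the authors' table. Lpl (lipoprotein lipase) fell from 149111 to 38777 (3.76-fold) and Cyp27a1 from 206 to 11.8 (at least 7.66-fold). In the fatty acid list 1 of 28 genes was up and 3 were down. These were 3.57% and 10.7%, against 3.54% and 5.01% of all genes measured. Of genes detected on at least 1 array 6.58% and 9.32% were called, so that the list lay near the shares of all genes. Acsl1 (an acyl-CoA synthetase) rose from 11555 to 62319 (5.51-fold), and the desaturase Scd2 (from 1443 to 219, 6.45-fold) and the elongase Elovl6 (from 244 to 33.4, 7.13-fold) were down. In the sterol synthesis list 17 of 23 genes were within 2-fold, and Srebf2, the transcription factor of these genes, fell from 7424 to 2351 (3.09-fold) on its brightest probe, but a second probe gave a log2 fold of 0.68 and the mean of both −0.47, which is not past the threshold. In the lysosomal list 4 of 27 genes were down, with Ctse from 219 to 31.4 (6.83-fold), and 0 were up, while Lamp1 (from 221509 to 177838, log2 fold −0.29) and Ctsb (from 238070.0 to 213764, log2 fold −0.12) were within 2-fold.

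In the amino acid list 7 of 28 genes were up and 6 down, which became 6 and 6 after spike-in scaling. The tryptophan-degrading enzymes Ido1 (from 7.63 to 176, at least 6.73-fold) and Ido2 (from 15.3 to 175, at least 6.71-fold) rose from background and Kynu (from 146 to 635, 4.46-fold) rose with them, whereas Kmo, which acts on kynurenine, fell from 284 to 70.6 (3.94-fold). Of genes of serine synthesis, Psat1 was up (from 5823 to 12725, 2.23-fold), though at a log2 fold of 0.99 after spike-in scaling, and Phgdh was down (from 3052 to 1057, 2.83-fold). Of 18 stress and unfolded protein response genes 5 were up and 0 down. Hspa1a, a heat shock protein, rose from 50.2 to 537 (10.9-fold) and the endoplasmic reticulum chaperone Hspa5 went from 87518 to 66628 (log2 fold −0.36). In the autophagy list 18 of 20 genes were within 2-fold, with 1 up and 1 down (5% each, against 3.54% and 5.01% of all genes). Sqstm1 (p62) was up (from 6780.4 to 14791, 2.23-fold), though not on a second probe (log2 fold 0.65) or after spike-in scaling. Atg16l2 was down (from 350.3 to 110.5, 3.1-fold). The Schlafen family had 1 of 8 genes down, Slfn9 (from 895 to 403, 2.18-fold), with a log2 fold of −0.97 after normexp correction.

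Of 30 growth factor genes 4 were up and 10 down. Beside Inhba, Edn1 (endothelin-1) rose from 16.1 to 829 (at least 31.8-fold), Ramp3, a subunit of adrenomedullin receptors, from 41.8 to 1257 (30.7-fold), and Vegfc from 259.9 to 4277 (16.8-fold). The genes down included Ramp2, a relative of Ramp3, from 260.3 to 12.4 (at least 9.67-fold), Pdgfc from 1556 to 254 (5.99-fold), Tgfb3 from 189 to 34.1 (5.42-fold), and Flt1, a VEGF receptor, from 2117 to 416 (4.98-fold). Of 19 purinergic genes 5 were up and 7 down (4 and 3 past a threshold of 3-fold). Adora2b, an adenosine receptor, rose from 106 to 760.0 (7.36-fold) and Pde4b, which degrades cyclic AMP, from 399.8 to 3079 (7.87-fold), whereas the ADP receptor P2ry12 fell from 419.7 to 38.6 (10.6-fold) and the ATP channel P2rx7 from 5979 to 1664 (3.52-fold). Of 19 Ly6 and MS4A membrane proteins 7 were up and 2 down. Ms4a4a rose from 359 to 9706 (27.6-fold) and Ly6i from 109 to 2179 (20.4-fold), while Ly6a (Sca-1), a gene known to respond to interferons, fell from 197727 to 86668 (2.23-fold).

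Transcription factors of the macrophage lineage were split, with 7 up and 9 down of 31. Ets2 rose from 1369.5 to 13492 (log2 fold 3.33), Nr4a2 from 62.4 to 459 (7.51-fold), and Klf4 from 554 to 1649 (3.04-fold). Id1 fell from 5081 to 186 (26.8-fold), Klf2 from 4926 to 683 (7.05-fold), and Id3 from 7072 to 1238 (5.59-fold). Cebpb (from 12425 to 22863, log2 fold 0.91), Maf (from 11896 to 17971, log2 fold 0.63), and Runx1 (from 2335 to 1917, log2 fold −0.25) were within 2-fold.

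Genes of cell division were down almost throughout. Of 43 measured genes of DNA replication and S phase, 35 were down and 0 up (median log2 fold −1.77), and of 39 genes of mitosis and the spindle, 35 were down and 0 up (median −2.41), against 5.01% of all genes down. Tk1, thymidine kinase (chromosome 11 from 117676845 to 117676904), fell from 7546 to 303 (24.4-fold), and a second probe gave −4.39. E2f7 fell from 989.6 to 41.6 (23.3-fold), Rrm2, a subunit of ribonucleotide reductase, from 14975 to 1141 (12.8-fold), and Dut (dUTPase) from 2102 to 183 (11.2-fold). Of the mitotic genes the kinesins Kif23 (from 763 to 47.5, 15.7-fold) and Kif11 (from 457 to 34, 13.2-fold), Ccna2 (cyclin A2, from 4940.0 to 371, 13-fold), and the kinase gene Plk1 (from 4262 to 379, 11-fold) had the largest decreases. On the array of CpG alone the signals of these genes lay closer to IFN-γ + αIL-10R than to Triple, for example 6098 for Tk1, 10983 for Rrm2, and 3433 for Ccna2. All 37 detected mitosis members had a log2 fold below 0, whether or not they were called.

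Clustered histone genes, which are made in S phase, had 25 of 47 members down and 1 up. The linker histone Hist1h1b (H1f5) fell from 4155 to 222 (18.3-fold) and Hist1h1a from 395 to 42.2 (9.15-fold), while Hist2h3c2 was up (from 365 to 939.8, 2.63-fold). Core histone genes of 1 kind are nearly identical, so that probes of these genes may share signal. Of 21 DNA repair genes 15 were down and 0 up, among them Neil3 (from 471 to 27.7, at least 16.7-fold) and Fanci (from 761 to 99.3, 7.5-fold), the second with −0.69 on another probe, whereas Nbn (from 281 to 320.0, log2 fold 0.22) and Parp1 (from 2550.0 to 2108, log2 fold −0.24) were within 2-fold. Of 27 inhibitors of the cycle, D cyclins, and p53 targets 4 were up and 6 down. Ccnd1 (cyclin D1), a target of M-CSF signaling, fell from 54254 to 6253 (8.49-fold), and the inhibitor Cdkn2c fell from 1769 to 187 (9.24-fold). Gadd45b rose from 3627 to 22538 (6.35-fold) and the inhibitor Cdkn2b from 35.1 to 218 (6.34-fold), while Cdkn1a (p21, from 16266 to 10991, log2 fold −0.53) and Cdkn1b (p27, from 3673 to 3403, log2 fold −0.08) were within 2-fold.

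**Figure D4:**
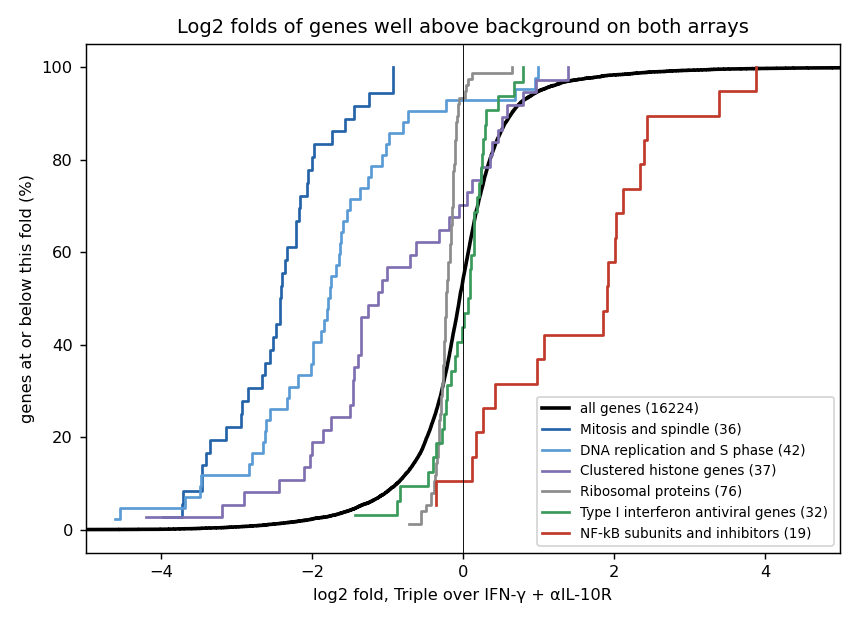
Share of genes at or below each log2 fold of Triple over IFN-γ + αIL-10R, for genes well above background on both arrays (numbers in the legend). The mitosis, replication, and histone curves lie to the left of all genes (medians −2.41, −1.77, and −1.12), the NF-κB curve to the right (1.91), and antiviral and ribosomal protein genes rise steeply near 0 (0.08 and −0.22).

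The promoters of E2f7 and Cdc6 are shown for their match to the E2F motif (TTTCCCGC or TTTGGCGC on either strand), and those of Kif11 and Ccnb2 for matches to the CHR (TTTGAA) and to CCAAT, elements known from promoters of genes of the late cell cycle. Matches are in capitals (250 bases before the start, RefSeq, GRCm38.p6).
E2f7 (chr10:110745189-110745438, plus strand): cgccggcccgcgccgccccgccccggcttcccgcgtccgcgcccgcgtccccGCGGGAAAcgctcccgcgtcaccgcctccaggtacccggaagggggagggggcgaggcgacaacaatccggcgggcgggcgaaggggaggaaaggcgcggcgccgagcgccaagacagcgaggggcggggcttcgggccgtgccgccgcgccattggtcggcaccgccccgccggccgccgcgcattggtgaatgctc
Cdc6 (chr11:98907901-98908150, plus strand): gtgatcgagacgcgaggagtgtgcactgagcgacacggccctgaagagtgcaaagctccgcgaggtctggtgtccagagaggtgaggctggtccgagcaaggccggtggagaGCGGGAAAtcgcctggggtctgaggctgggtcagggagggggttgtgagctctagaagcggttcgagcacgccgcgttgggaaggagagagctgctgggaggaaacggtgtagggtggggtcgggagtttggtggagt
Kif11 (chr19:37376132-37376381, plus strand): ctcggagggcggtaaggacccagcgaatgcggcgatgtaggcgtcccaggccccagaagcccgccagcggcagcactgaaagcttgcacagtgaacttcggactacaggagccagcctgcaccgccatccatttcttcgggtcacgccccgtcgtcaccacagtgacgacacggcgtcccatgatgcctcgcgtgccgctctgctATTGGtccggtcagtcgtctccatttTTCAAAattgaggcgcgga
Ccnb2 (chr9:70421555-70421804, minus strand): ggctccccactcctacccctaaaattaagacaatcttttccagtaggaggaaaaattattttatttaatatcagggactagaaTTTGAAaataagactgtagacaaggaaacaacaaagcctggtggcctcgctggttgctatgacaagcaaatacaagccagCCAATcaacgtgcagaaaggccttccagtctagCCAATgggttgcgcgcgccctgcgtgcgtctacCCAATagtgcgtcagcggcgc
The E2F motif was in 10 of 28 promoters of the replication genes that were down (35.7%) and in 3 of 6 promoters of those not called (50%), compared with 5.14% for all genes down, 1.6% for all genes up, and 2.99% for detected genes. The CHR was in 23 of 31 promoters of the mitosis genes that were down (74.2%), compared with 16.3%, 12.6%, and 12.6% in the same order, and CCAAT was in 23 of them, compared with 44.3%, 36.8%, and 39.2%. For AP-1 (TGANTCA) these 3 shares were 6.03%, 9.74%, and 5.45%, and for the sterol element TCACCCCAC 0.266%, 0.436%, and 0.472%. A promoter counted once for each motif, also where matches overlapped, and the shares were not tested.

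Of the remaining genes with the largest decreases, Rnf150, a RING finger protein, fell from 2831 to 56.2 (49.3-fold) on its brightest probe, but its other probes gave −2.41 and −0.73. Pcp4l1 fell from 6640.4 to 169 (38.5-fold), and Lifr, the receptor of leukemia inhibitory factor, from 898 to 37.3 (23.5-fold), with −4.02 and −2.37 on other probes. Sectm1a fell from 1182 to 37.4 (31-fold) and, like Gbp1, was not well above background with CpG alone. Rab19 (from 7933 to 375, 20.7-fold), Tmem37 (from 5741 to 295, 19.1-fold), and the kinase Dmpk (from 7336 to 409.9, 17.5-fold) were lower as well, with a second Dmpk probe at −0.95. Ephx1, a microsomal epoxide hydrolase, fell from 2349 to 117 (19.6-fold), with −0.51 on a second probe. Among genes that fell to background, Cd34, a surface protein of progenitor cells, fell from 634 to 27.1 (at least 22.9-fold), and the Rac regulator Chn2 from 991 to 6.86 (at least 36.8-fold), with −2.93 on a second probe. Rasgrp3, an exchange factor for Ras, fell from 620.3 to 5.3 (at least 23-fold), Cmbl from 594 to 7.05 (at least 22.1-fold), Lrrc14b from 589 to 12.8 (at least 21.9-fold), and Olfr976, an odorant receptor gene, from 1158 to 5.53 (at least 43-fold).

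**Figure D5:**
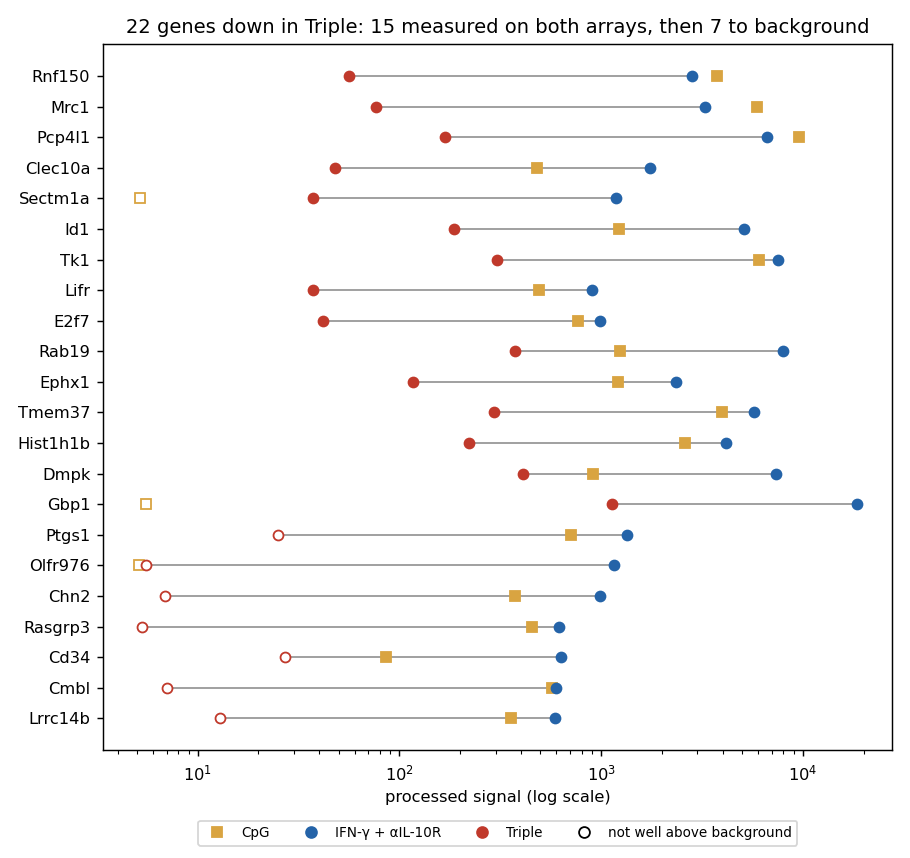
Processed signal (log scale) of 15 genes measured as down in Triple and of 7 genes that fell to background, on the CpG (square), IFN-γ + αIL-10R (blue), and Triple (red) arrays; open symbols are not well above background. Triple lies to the left of IFN-γ + αIL-10R for each gene by definition, from 16.0-fold for Gbp1 to 49.3-fold for Rnf150 among the upper 15, and CpG lies near IFN-γ + αIL-10R for Tk1 and E2f7 and at background for Sectm1a and Gbp1.

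Where a called gene had further probes, most of them moved the same way. Among all genes up, 205 of 353 other probes that were well above background on at least 1 of the arrays were also up by more than 2-fold and 2 were down. Among all genes down, 326 of 508 were also down and 8 were up. For the genes selected by the naming rule these numbers were 30 of 35 with 0 down, and 25 of 38 with 0 up. Of all calls, 858 lay within 2 technical SD of the threshold.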

How the data were processed

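RNA of each condition was labeled and hybridized to 1 mouse gene expression array of 1 color, and the scanner's Feature Extraction (10.10.1.1) files were deposited by the authors. The deposited processed signal is an intensity from which the authors' scanner software had subtracted the background, per the file headers. The deposited table of the same arrays holds the authors' log2 values, which served as an alternative setting. Here, outlier-marked and control spots were dropped, repeated spots of a probe were averaged, and log2 of the intensity was shifted to a common 75th percentile, taken over the probes that all 3 arrays detected. A gene is a distinct name of the array design, measured by its probe with the highest mean level over the 3 arrays. A gene was called past 2-fold, with a dim signal raised to the lowest signal well above background.

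Each condition had 1 array, so that no test was made, and the number of arrays limits the precision. The genes to compare and the lists were chosen with earlier results of these data known. Named were the 15 largest measured differences and the 8 brightest genes at a bound in each direction, up to 4 called members of each list in each direction by size of the difference, and, as not called, members of short lists. Tnf, Il10, Ifnb1, Plaur, Abcg1, and Psat1 lie outside that rule and were chosen after their values were seen. Alternatives were background correction by normexp (limma 3.58.1), other scalings, the authors' table, other filters and thresholds, and other ways to choose probes. Symbols were updated and promoters read from RefSeq (GRCm38.p6), and 0 columns of other samples were present. Genes with an outlier mark entered 1 alternative only, and some genes of the rule and the lists are not reported here. Calculations used Python 3.11.15, numpy 2.4.6, and pandas 2.3.3.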

Additional observations from a re-analysis of the deposited data

How the results depend on the processing

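None of the 290 named called genes changed sign under any alternative in which it had a value. These genes had been chosen for folds past 2 on the same arrays. The scalings and filters could therefore hardly change a sign. Between 245 and 290 of them stayed past 2-fold, the fewest where a signal well above background was required on both arrays, which drops every bound. Csf1, H2-DMb1, Ly6c1, Nlrp1a, Sqstm1, Srebf2, Steap3, and Zbtb46 were not past it with the mean of a gene's probes. Genes down numbered 1105 (813 up) after normexp correction. With no filter on dim signals 2551 genes were up and 3109 down, at 1.5-fold 2429 and 3162, and at 3-fold 624 and 827. The share of calls that were up was 49.4% with the 75th percentile of all probes, 48.6% with median scaling, 48.9% in the authors' table, and 31.1% with spike-in scaling, which used 5 spike-in probes and gave a median log2 fold of −0.21. With outlier-marked spots kept, 1245 genes were up and 1750 down, and the median log2 fold of the MAP kinase phosphatases was 0.44 instead of −0.49. The 19 list medians beyond 0.3 kept their sign under these scalings and normexp. Apart from quantile normalization, the scalings moved all log2 folds alike, by −0.16 to 0.12. They could therefore not change the sign of such a median. The direction with more calls changed, or became a tie, in 1 to 3 of the 52 lists under normexp, spike-in scaling, the filters, and other thresholds, among them MAP kinase phosphatases, guanylate-binding proteins, adhesion receptors, amino acid genes, and coagulation genes. The cause was not tested.

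Of alternatives chosen after seeing the data, genes measured on all 3 arrays gave 1187 up and 1681 down, and leaving out single spots of the first 48 of 384 array rows gave 996 and 1418. No paired analysis was possible because there was a single array for each treatment. Genes not well above background have only a bound, and 858 calls lay within 2 technical SD of the threshold.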
